A study of Homo sapiens with 15 samples.

Results

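The genes described here are 53 zinc finger genes of the human 19q13.1-q13.3 clusters, taken by symbol from a fixed list, and all 53 were found among the 55773 gene names of the deposited ribosome profiling table. They were measured in HEK293, an established human line from embryonic kidney, with 15 libraries in 5 groups of 3. Flag/HA-ZC3H7A and Flag/HA-ZC3H7B cells expressed tagged ZC3H7A or ZC3H7B after 24 h of doxycycline at 1 µg/mL, and Flag/HA control cells, also labelled as treated with doxycycline, overexpressed the tag alone. The cells labelled ZC3H7A/B-DD were ZC3H7A knockout cells that also expressed a ZC3H7B hairpin, and Parental cells were wild type with a control hairpin. Both hairpin lines were selected with puromycin at 5 µg/mL, released from it before collection, and lysed as frozen pellets with cycloheximide at 100 µg/mL. The Flag/HA lines were lysed in another buffer and made into libraries by another protocol, so levels were compared only inside each set. How many clones stand behind any of the lines is not given in the sources used here. Nor is it given whether the 3 libraries of a hairpin group came from separate cultures. The p-values of every comparison, Flag/HA lines included, thus measure only the spread between these libraries. ZC3H7A and ZC3H7B are RNA-binding proteins with CCCH zinc fingers, and the series addresses codon-dependent control of translation and mRNA stability by them.

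C2H2 zinc finger proteins bind DNA through repeated fingers, each held by a pair of cysteines and a pair of histidines around a zinc ion and joined to the next by a short conserved linker. Many of those encoded on chromosome 19 also carry a KRAB domain, which recruits TRIM28 (KAP1) and through it the histone methyltransferase SETDB1, and so represses target loci, often transposable elements. The genes arose by tandem duplication, which left neighbouring copies with related coding sequences, and human zinc finger coding sequences favour A or T at the wobble base of codons.

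The libraries held 24703005 to 25922138 assigned reads in Flag/HA-ZC3H7A, 22661812 to 25939425 in Flag/HA-ZC3H7B, 28261810 to 29515572 in Flag/HA control, 20777204 to 42680589 in ZC3H7A/B-DD and 32955833 to 39064072 in Parental cells. ZC3H7A had 37858, 37598 and 38675 normalized counts in Flag/HA-ZC3H7A libraries, against 6509, 6526 and 6607 in Flag/HA control. ZC3H7B had 27538, 27182 and 28936 normalized counts in Flag/HA-ZC3H7B libraries, against 2230.5, 2137 and 2089 in Flag/HA control. In the libraries labelled ZC3H7A/B-DD neither target was lower: ZC3H7A had 7116, 1890.3 and 5066 there, against 1885, 1819.9 and 2311 in Parental, and ZC3H7B had 3948, 2399 and 2969, against 2479, 2321 and 2609. The libraries overlapped for both, and neither difference was called (adjusted p = 0.085 for ZC3H7A and 0.20 for ZC3H7B, limma). The footprints thus showed no loss of either target, but whether the label holds could not be checked from them. Every direction given below for ZC3H7A/B-DD refers to the libraries so labelled. Parental replicate 3 stood apart, with a median difference between libraries of 1.16-fold to replicate 1 and 1.13-fold to replicate 2, whereas replicates 1 and 2 differed by 1.06-fold, and results for the hairpin lines are therefore also given without it. The ZC3H7A/B-DD libraries were spread too, by 1.13-fold between replicates 1 and 2 and by 1.095-fold from replicate 3 to either. All 6 HEK293 markers were detected in every group, with summed normalized counts of 25251 to 27401 in Flag/HA-ZC3H7A, 23999 to 27265 in Flag/HA-ZC3H7B, 19819 to 20997 in Flag/HA control, 40192 to 44984 in ZC3H7A/B-DD and 21113 to 30999.8 in Parental libraries. VIM supplied most of these sums, at a mean of 41677 in ZC3H7A/B-DD and 21922 in Parental libraries. KRT8 (209 against 1098), KRT18 (591 against 1125) and PAX2 (141 against 223) were lower in ZC3H7A/B-DD, and NEFM and NEFL were level. The 7 fibroblast markers summed to 269 to 304 in Flag/HA-ZC3H7A, 216 to 243 in Flag/HA-ZC3H7B, 171 to 201 in Flag/HA control, 425 to 519 in ZC3H7A/B-DD and 639 to 806 in Parental libraries. The 6 blood cell markers summed to 250.4 to 324 in Flag/HA-ZC3H7A, 336 to 445 in Flag/HA-ZC3H7B, 607 to 801 in Flag/HA control, 303 to 362 in ZC3H7A/B-DD and 164 to 212 in Parental libraries. Their part in the results was not tested, no listed marker was at 0 throughout a group, and HBB supplied most of the blood cell sum of the control, at a mean of 687 normalized counts. In bulk footprints, fewer cells of a type and less RNA per cell cannot be told apart, nor can more mRNA and more ribosomes on each mRNA.

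The 53 genes lie in 3 clusters on chromosome 19 (GRCh38, GENCODE release 29). Cluster 1 holds 5 of them, from ZNF302 to ZNF792 (chr19:34677639-34964049). Cluster 2 holds 28, from ZNF565 to ZNF573 (chr19:36182060-37817300), and cluster 3 holds 20, from ZNF283 to ZNF180 (chr19:43827292-44500524). Their longest coding sequences encode 292 to 1090 amino acids (median 615) with 6 to 29 C2H2 finger patterns (median 13), 714 fingers in all, and 415 copies of the TGEKP or TGERP linker. A KRAB-like motif was found near the start of 49 proteins and not in those of ZNF146, ZNF260, ZNF345 and ZNF180. The shortest protein is that of ZNF146 and the longest, with 29 fingers, that of ZNF850.

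Cysteine and histidine made up 12.9% of all codons of the 53 genes, against 4.93% over all annotated coding sequences. TGT was used for 82.9% of their cysteines (46.5% over all coding sequences) and CAT for 66.5% of their histidines (42.6% over all). The last codon base differed between clusters at glutamate, where GAA was used for 59.8% of residues in cluster 2 and 44.1% in cluster 3. It also differed at histidine, with CAT at 72.2% in cluster 2 and 60.3% in cluster 3. At cysteine, TGT was used for 67.7% in cluster 1, 84.2% in cluster 2 and 84.4% in cluster 3. The finger-and-linker unit below shows this repeat, each run being 1 finger with its linker in a coding exon of the named gene, taken from the GENCODE release 29 transcript, and a capital marks each A or T at the last base of a codon. ZNF793 and ZFP82 were the most increased in Flag/HA-ZC3H7A cells, ZNF229 rose alike in both lines, ZNF573 moved in opposite directions, ZNF285 was the most different in favour of Flag/HA-ZC3H7B, ZNF226 was called in no comparison, and ZNF146 has the highest level.
ZNF793 (chr19:37537343-37537420, plus strand, coding exon 4): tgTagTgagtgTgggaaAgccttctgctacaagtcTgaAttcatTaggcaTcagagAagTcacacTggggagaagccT
ZFP82 (chr19:36393749-36393826, minus strand, coding exon 5): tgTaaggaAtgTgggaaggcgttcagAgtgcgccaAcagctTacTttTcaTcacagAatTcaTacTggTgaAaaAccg
ZNF229 (chr19:44429569-44429646, minus strand, coding exon 6): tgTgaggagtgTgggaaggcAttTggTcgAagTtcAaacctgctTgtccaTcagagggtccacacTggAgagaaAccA
ZNF573 (chr19:37739923-37740000, minus strand, coding exon 5): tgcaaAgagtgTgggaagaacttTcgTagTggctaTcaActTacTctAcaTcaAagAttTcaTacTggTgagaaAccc
ZNF285 (chr19:44387048-44387125, minus strand, coding exon 5): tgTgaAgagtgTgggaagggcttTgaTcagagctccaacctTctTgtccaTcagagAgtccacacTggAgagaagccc
ZNF226 (chr19:44176355-44176432, plus strand, coding exon 6): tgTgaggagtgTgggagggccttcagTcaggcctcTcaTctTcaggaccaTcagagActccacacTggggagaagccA
ZNF146 (chr19:36236660-36236737, plus strand, coding exon 4): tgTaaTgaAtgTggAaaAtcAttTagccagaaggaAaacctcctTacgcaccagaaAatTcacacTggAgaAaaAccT
Of the 26 codons in each unit, 12 end in A or T in ZNF793, 16 in ZFP82, 14 in ZNF229, 18 in ZNF573, 11 in ZNF285, 10 in ZNF226 and 17 in ZNF146. The unit of ZNF573 held the most A or T endings of these 7, and that of ZNF226 the fewest. Each unit is only the first match in its gene. Over the whole coding sequence, such codons made up 65.5% in ZNF573, 59.4% in ZNF226 and 47.1% in ZNF229, the lowest of these 7.

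The deposited values are counts scaled per library, so levels of different genes are compared here per kilobase of coding sequence. ZNF146 stood far above the other genes in every group. Its mean was 26629 ± 373 normalized counts per kb in Flag/HA-ZC3H7A, 23489 ± 662 in Flag/HA-ZC3H7B and 19106 ± 141 in Flag/HA control (SD, n = 3 each). It was 11763 ± 1362 in ZC3H7A/B-DD and 12577 ± 710.1 in Parental libraries. ZNF146, also called OZF, encodes a protein made up almost only of fingers. In Flag/HA control the next levels were those of ZNF529 (2733 ± 195 per kb), ZNF260 (2029.7 ± 78.9) and ZFP30 (1992 ± 90.3), of which ZNF260 and ZFP30 did not differ beyond their spread. ZNF285 was last of the 53 in every group, at 43.6 ± 3.37 per kb in Flag/HA control, below ZNF540 at 88.3 ± 11.1, ZNF229 at 101 ± 11.7 and ZNF599 at 102 ± 12, 3 neighbours in the order that did not differ beyond their spread. In Flag/HA-ZC3H7A, ZFP30 reached 3830.0 ± 155 per kb, level with ZNF529 at 3729 ± 189.

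**Figure D1:**
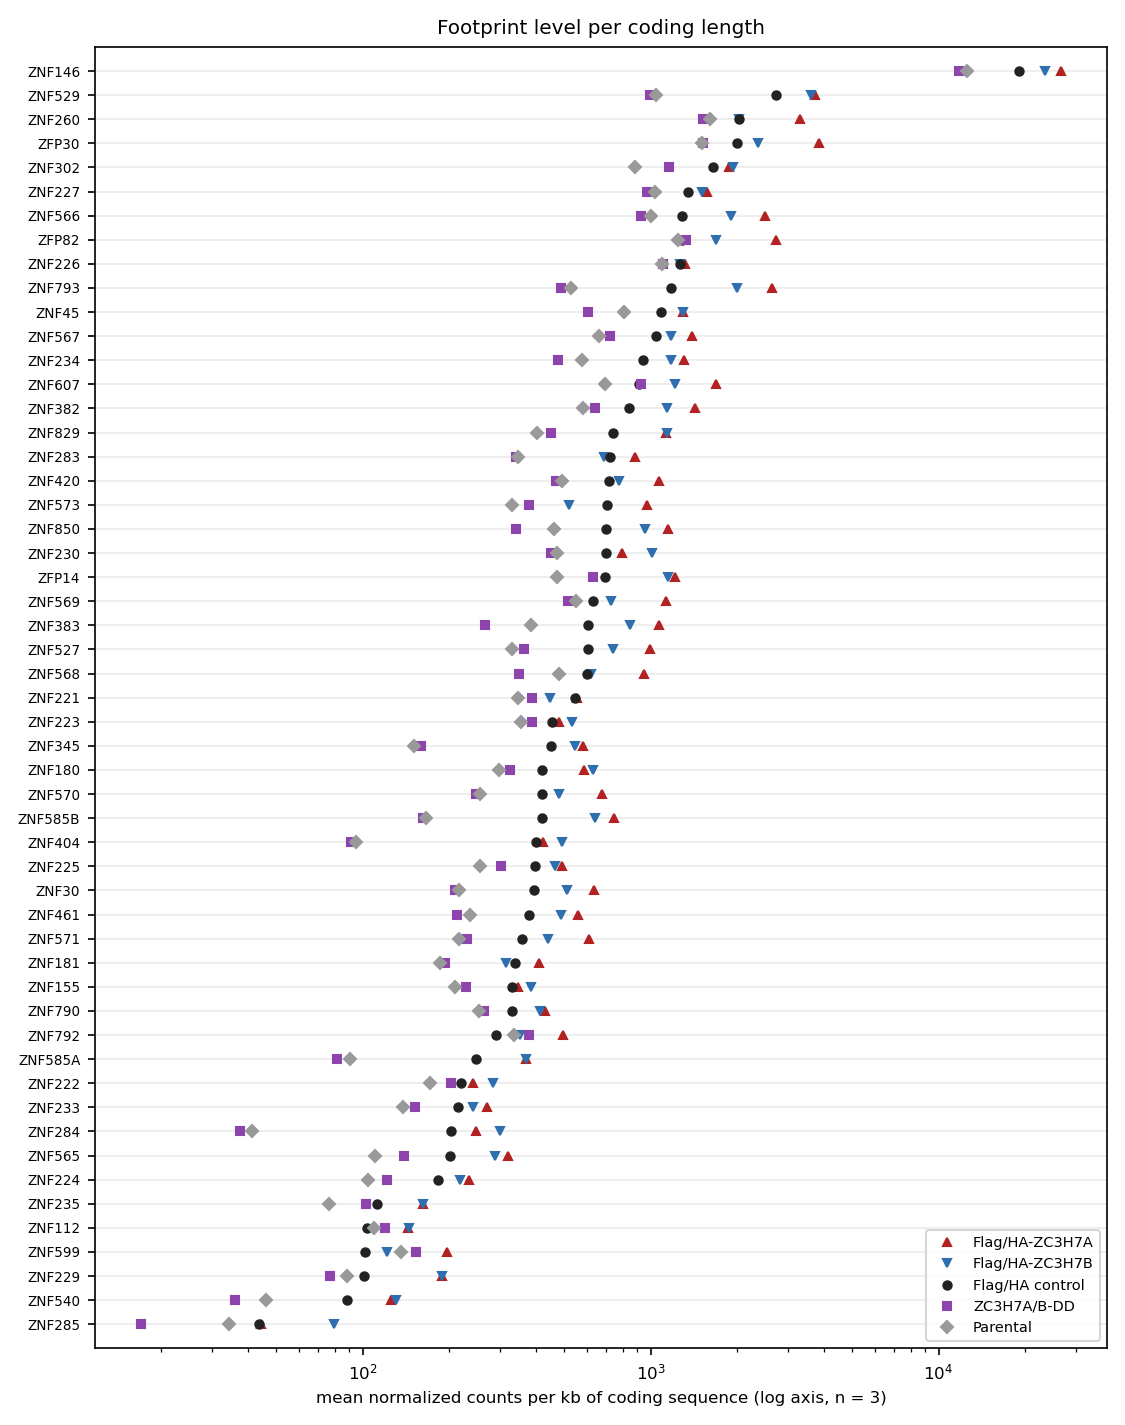
Mean normalized counts per kilobase of coding sequence (log axis, n = 3 libraries per group) of the 53 zinc finger genes, ordered by their level in Flag/HA control, with 1 symbol per group. ZNF146 lies far to the right of all others in every group, and ZNF285 is lowest in every group.

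Zinc finger footprints were higher in Flag/HA-ZC3H7A than in Flag/HA control cells along most of the 3 clusters. With limma on log2(normalized count + 1) and Benjamini-Hochberg adjustment over all 15599 genes tested, 46 of the 53 genes rose, none fell and 7 did not pass the threshold of 0.05. Over all genes tested, 57.5% were called, 29.2% higher and 28.2% lower. The median log2 change of the 53 genes was 0.51 (1.43-fold), against 0.022 over all genes, and the largest was 1.17, of ZNF793. All 3 Flag/HA-ZC3H7A libraries lay above all 3 controls in 46 genes, which are not all the same as the 46 called, and in none below. Over all genes the libraries did not overlap in 63.9%, with 32.4% above and 31.5% below. As a share of all reads the 53 genes took 0.333% to 0.351% in Flag/HA-ZC3H7A libraries, 0.280% to 0.291% in Flag/HA-ZC3H7B and 0.214% to 0.225% in Flag/HA control.

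ZNF793 (chr19:37506939-37548762, plus strand, 6 fingers) had 3090.4, 2970.4 and 3605 normalized counts in Flag/HA-ZC3H7A, 2346, 2254 and 2697 in Flag/HA-ZC3H7B and 1323, 1512 and 1458 in Flag/HA control. The groups did not overlap, with Flag/HA-ZC3H7A highest and control lowest. Its log2 change was 1.17 ± 0.071 (SE), adjusted p = 2.3e-12 with limma, for Flag/HA-ZC3H7A over control. ZFP82 (chr19:36383120-36418656, minus strand) had 4325, 4382 and 4317 in Flag/HA-ZC3H7A, 2778, 2806 and 2526 in Flag/HA-ZC3H7B and 2077, 2029 and 2037 in control. Here too the 3 groups stood apart, and the rise in Flag/HA-ZC3H7A, 1.08 ± 0.048 (SE), adjusted p = 1.3e-14 with limma, was well above the spread between libraries. ZNF566 (chr19:36445119-36489902, minus strand) had 2949.9, 3093 and 3358 in Flag/HA-ZC3H7A and 1617, 1582 and 1667 in control, a log2 change of 0.95 ± 0.052 (SE), adjusted p = 4.0e-13 by limma. ZFP30 (chr19:37613749-37692337, minus strand), whose mouse counterpart has been linked to neutrophil chemokine expression, had 5870.2, 5782 and 6238 in Flag/HA-ZC3H7A and 3009, 3033 and 3263 in control, or 0.94 ± 0.048 (SE), adjusted p = 1.3e-13 by limma. In both genes every Flag/HA-ZC3H7A library was above every control.

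Outside cluster 2 the largest rises were those of ZNF599 in cluster 1 and ZNF229 in cluster 3. ZNF599 (chr19:34758076-34773229, minus strand) had 371, 355 and 309 normalized counts in Flag/HA-ZC3H7A, 243, 179.7 and 219 in Flag/HA-ZC3H7B and 185, 199 and 157 in control. Only the Flag/HA-ZC3H7A libraries were clear of the control, at a log2 change of 0.94 ± 0.13 (SE), adjusted p = 1.2e-06 by limma, while the Flag/HA-ZC3H7B libraries overlapped it. ZNF229 (chr19:44417519-44448578, minus strand) had 493, 422 and 486 in Flag/HA-ZC3H7A, 480.5, 465 and 450.3 in Flag/HA-ZC3H7B and 220.3, 254 and 278 in control. Both lines lay above the control and overlapped each other. The log2 change of ZNF229 was 0.90 ± 0.10 (SE), adjusted p = 3.9e-08 for Flag/HA-ZC3H7A over control by limma.

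**Figure D2:**
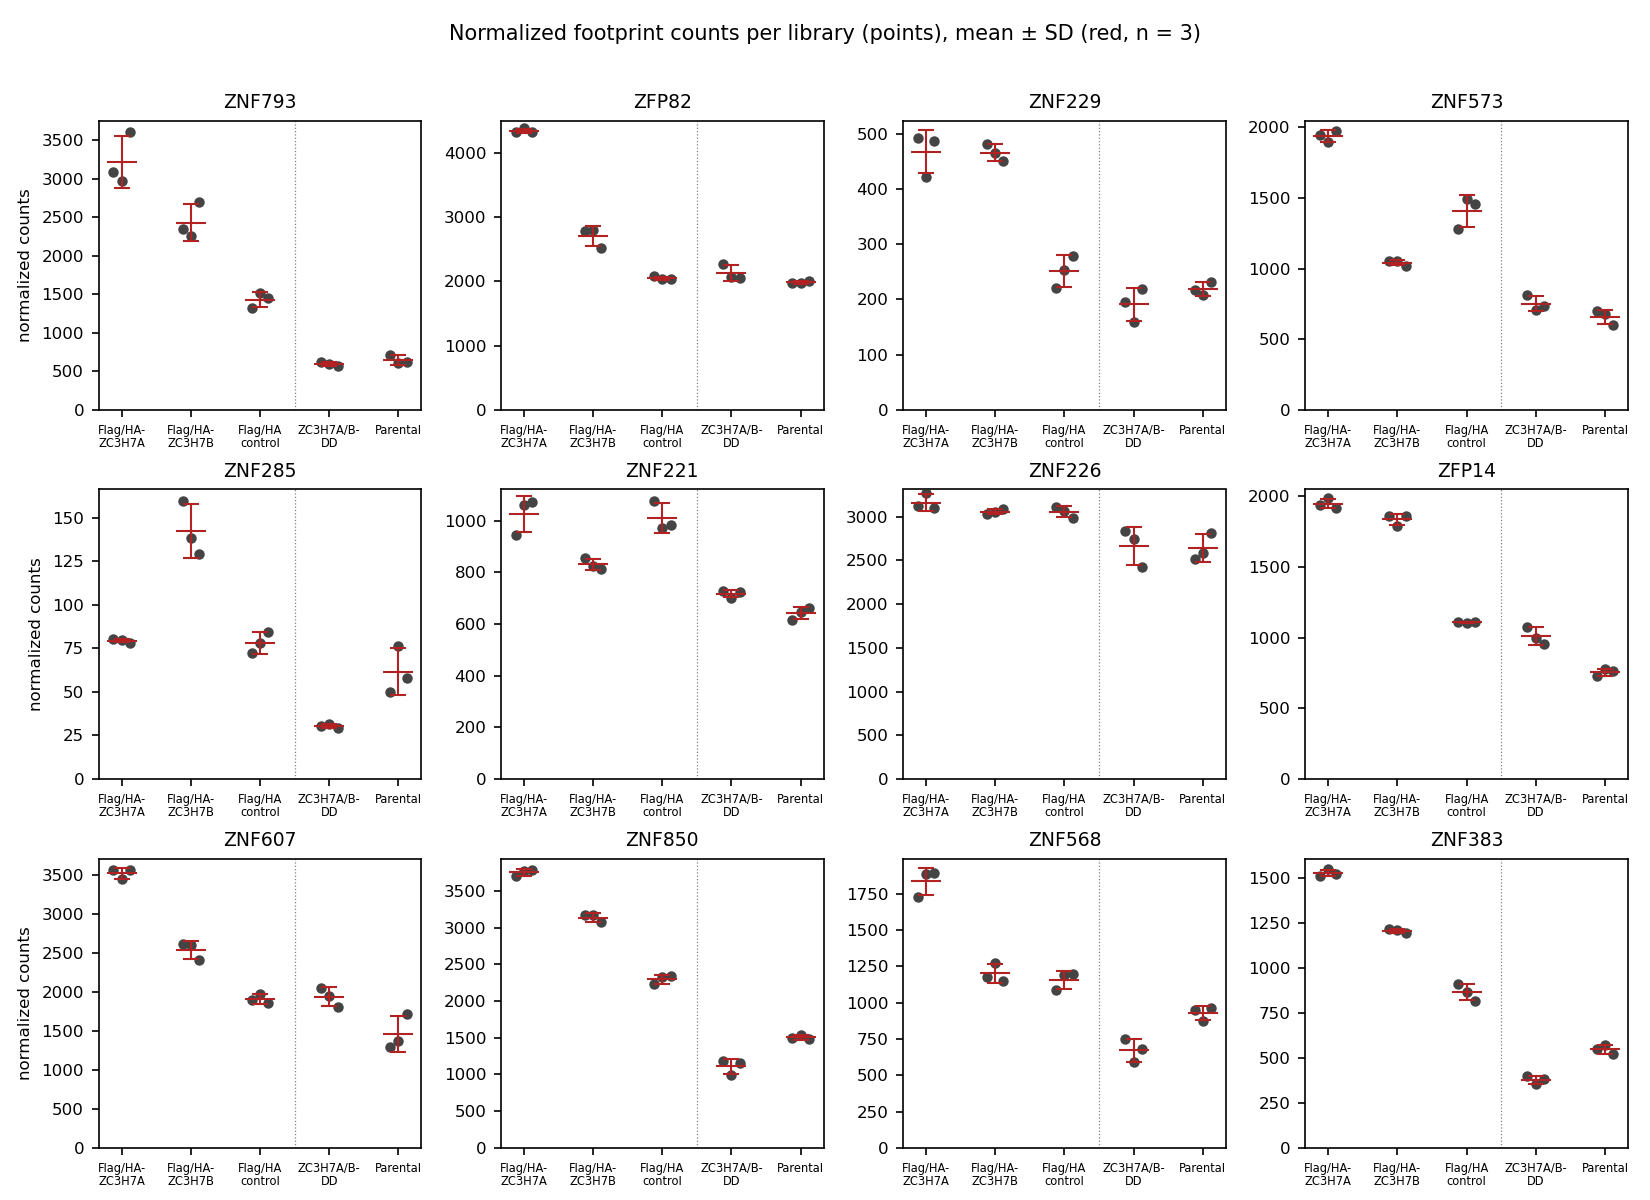
Normalized footprint counts (linear axis from 0) of 12 zinc finger genes in each library (points), with the mean ± SD of each group in red (n = 3); the dotted line parts the Flag/HA lines from the hairpin lines, which were prepared differently. ZNF793 and ZFP82 step down from Flag/HA-ZC3H7A over Flag/HA-ZC3H7B to control, ZNF573 is lowest of the Flag/HA groups in Flag/HA-ZC3H7B, and ZNF226 is level across the Flag/HA groups.

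The change was uneven along the chromosome. All 5 genes of cluster 1 and all 28 of cluster 2 rose in Flag/HA-ZC3H7A, with median log2 changes of 0.69 and 0.69, while 13 of 20 rose in cluster 3, with a median of 0.27. In cluster 2 the smallest change was that of ZNF790, at 0.37 ± 0.076 (SE), which was larger than 15 of the 20 changes in cluster 3. The 7 genes that did not pass (ZNF404, ZNF221, ZNF155, ZNF222, ZNF223, ZNF226 and ZNF285) all lie in cluster 3, with log2 changes of 0.021 to 0.14. ZNF226 (chr19:44165073-44178381, plus strand) illustrates them, with 3119.9, 3269 and 3099 normalized counts in Flag/HA-ZC3H7A, 3029, 3057 and 3090.4 in Flag/HA-ZC3H7B and 3113, 3069 and 2989 in control. Its libraries overlapped with the control in both lines, and it was the only gene of the 53 called in neither. Of the 13 called genes of cluster 3, ZNF284 was called although its libraries overlapped with the control, at 379, 453 and 488 in Flag/HA-ZC3H7A and 319, 376 and 385 in control. The call was lost without Flag/HA-ZC3H7A replicate 2 or 3 or Flag/HA control replicate 1.

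Summed over cluster 2, Flag/HA-ZC3H7A libraries had 86285 ± 2459 normalized counts, Flag/HA-ZC3H7B libraries 68850.1 ± 638 and controls 54617 ± 1192 (SD, n = 3 each), so that the lines had 1.58 and 1.26 times the control mean. Over cluster 3 the sums were 23612 ± 146 in Flag/HA-ZC3H7A, 23236 ± 212 in Flag/HA-ZC3H7B and 19910.4 ± 73.8 in control, or 1.19 and 1.17 times the control mean. Cluster 1 summed to 5919 ± 94.3 in Flag/HA-ZC3H7A, 5187 ± 72.2 in Flag/HA-ZC3H7B and 4448 ± 87.1 in control, or 1.33 and 1.17 times. The Flag/HA-ZC3H7A and Flag/HA-ZC3H7B sums thus lay far apart in cluster 2 and close together in cluster 3, and whether the clusters differ was not tested. ZNF146 supplied a large part of cluster 2, and without it the 52 other genes together still had 1.49 and 1.23 times the control in Flag/HA-ZC3H7A and Flag/HA-ZC3H7B.

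**Figure D3:**
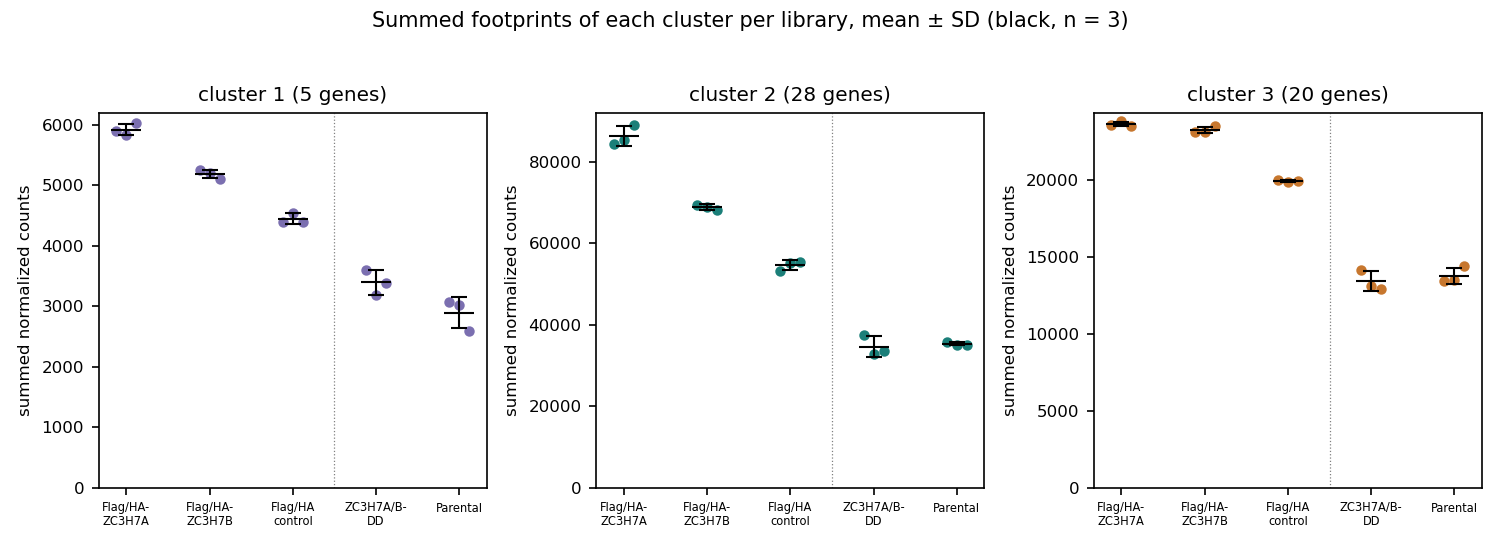
Summed normalized counts of the zinc finger genes of each cluster in every library (points), with mean ± SD in black (n = 3) and axes that start at 0. In cluster 2 the Flag/HA-ZC3H7A libraries sit above the Flag/HA-ZC3H7B ones, both above the control, whereas in cluster 3 the 2 lines are close and the hairpin groups overlap.

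In Flag/HA-ZC3H7B cells the same clusters were higher than in Flag/HA control, with smaller sums and medians than in Flag/HA-ZC3H7A in clusters 1 and 2 and close ones in cluster 3. Of the 53 genes, 43 rose, ZNF573 and ZNF221 fell and 8 did not pass (limma, Benjamini-Hochberg over all genes), against 54.3% of all genes called, 28.9% higher and 25.4% lower. The median log2 change was 0.30 (1.23-fold), against 0.036 over all genes. The libraries of 45 of the 53 genes lay above and those of 3 below all controls. Among all genes tested, 61.1% showed no overlap: 32.2% of all genes lay above, and the rest of the 61.1% lay below. By cluster, 3 of 5, 24 of 28 and 16 of 20 rose, with medians of 0.24, 0.39 and 0.27. Both comparisons use the same 3 control libraries, so the values of the lines are given side by side and are not independent.

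ZNF229 and ZNF285 showed the largest rises in Flag/HA-ZC3H7B. ZNF229 changed by 0.90 ± 0.10 (SE), adjusted p = 4.6e-08 on the log2 scale over control by limma, with the library values given above. ZNF285 (chr19:44382298-44401608, minus strand), the lowest gene per kb, had 159.7, 138 and 129 normalized counts in Flag/HA-ZC3H7B and 72.2, 77.8 and 84.2 in control, a log2 change of 0.86 ± 0.16 (SE), adjusted p = 1.0e-04 by limma. In Flag/HA-ZC3H7A it had 80.3, 79.6 and 78.3, inside the control range. ZNF793 changed by 0.76 ± 0.071 (SE) in Flag/HA-ZC3H7B, below its change in Flag/HA-ZC3H7A.

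ZFP14 and ZNF829 rose to similar levels in both lines. ZFP14 (chr19:36334453-36379199, minus strand) had 1940.2, 1985 and 1918 normalized counts in Flag/HA-ZC3H7A, 1863, 1792 and 1858 in Flag/HA-ZC3H7B and 1110.2, 1102 and 1111 in control, with log2 changes of 0.81 ± 0.050 and 0.73 ± 0.050 (SE). ZNF829 (chr19:36888124-36916291, minus strand) had 1654, 1643 and 1913 in Flag/HA-ZC3H7A, 1717, 1820.3 and 1742 in Flag/HA-ZC3H7B and 1119, 1129 and 1170.4 in control, with 0.60 ± 0.060 and 0.63 ± 0.060. Neither gene was called between the lines.

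ZNF573, the last gene of cluster 2 (chr19:37735833-37817300, minus strand, 19 fingers), moved in opposite directions. It had 1943, 1893 and 1976 normalized counts in Flag/HA-ZC3H7A, 1052, 1052 and 1021 in Flag/HA-ZC3H7B and 1281, 1495 and 1454 in Flag/HA control. No library of any of these groups reached into another group: Flag/HA-ZC3H7A was highest and Flag/HA-ZC3H7B lowest. The log2 change was 0.46 ± 0.059 (SE), adjusted p = 4.7e-07 in Flag/HA-ZC3H7A and -0.43 ± 0.059 (SE), adjusted p = 1.3e-06 in Flag/HA-ZC3H7B by limma. ZNF221 (chr19:43951223-43967709, plus strand) fell in Flag/HA-ZC3H7B, where it had 855, 825 and 811, against 1077, 970.2 and 983 in control, a log2 change of -0.28 ± 0.066 (SE), adjusted p = 9.4e-04 by limma. In Flag/HA-ZC3H7A its 944, 1059 and 1073 overlapped with the control.

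Set side by side, 38 of the 53 genes were called higher in both lines. Over all genes tested, 29.2% were called higher in Flag/HA-ZC3H7A and 28.9% in Flag/HA-ZC3H7B. The share of all genes with each pair of calls was not worked out, so these counts stand without a background. Another 7 were called higher in Flag/HA-ZC3H7A with no call in Flag/HA-ZC3H7B (ZNF181, ZNF599, ZNF260, ZNF568, ZNF420, ZNF283 and ZNF233), and 5 the other way round (ZNF404, ZNF155, ZNF222, ZNF223 and ZNF285). The last 5 all lie in cluster 3. A call in only 1 line does not show a difference between lines, which was tested directly.

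**Figure D4:**
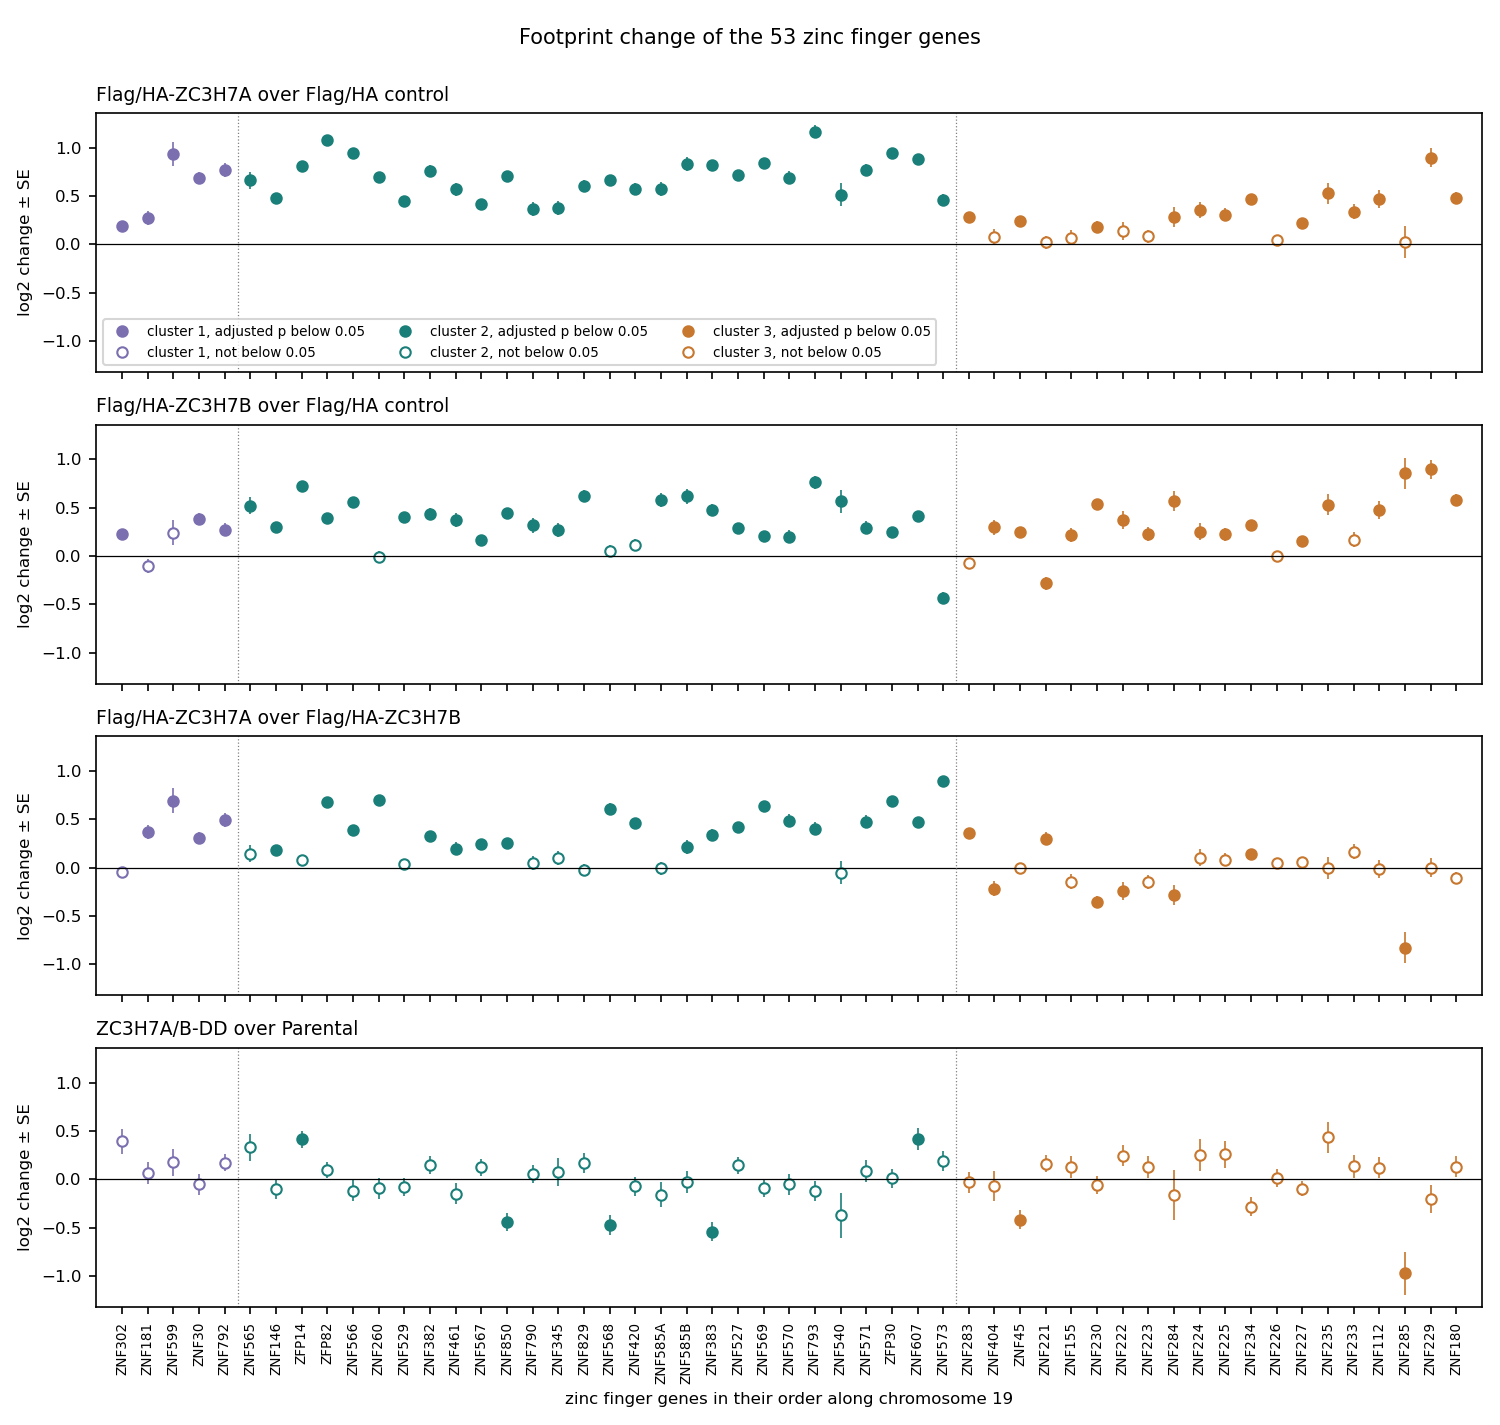
Log2 change ± SE of the 53 zinc finger genes in their order along chromosome 19 for the 4 comparisons; filled points passed an adjusted p of 0.05 and open points did not, and dotted lines part the 3 clusters. In the top panel every point of clusters 1 and 2 is filled and above 0, in the third panel the filled points below 0 all lie in cluster 3, and in the bottom panel most points are open and near 0.

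Between the lines, 27 genes were higher in Flag/HA-ZC3H7A than in Flag/HA-ZC3H7B, 5 were lower and 21 did not pass, against 36.6% of all genes called, 18.4% higher and 18.2% lower. The Flag/HA-ZC3H7A libraries lay wholly above those of Flag/HA-ZC3H7B in 30 genes and below in 5, against 43.7% of all genes without overlap, 21.9% above and 21.9% below. The 27 comprise 4 of 5 genes in cluster 1, 20 of 28 in cluster 2 and 3 of 20 in cluster 3 (ZNF283, ZNF221 and ZNF234). The 5 lower genes (ZNF404, ZNF230, ZNF222, ZNF284 and ZNF285) are all in cluster 3. Median log2 differences were 0.37, 0.33 and -0.00084 in clusters 1 to 3. The count of 5 was sensitive to the test: DESeq2 called 2 of them, ZNF230 and ZNF285, and leaving out Flag/HA-ZC3H7A replicate 1 also left these 2, while leaving out Flag/HA-ZC3H7B replicate 2 or 3 left 3.

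ZNF573 had the largest difference in favour of Flag/HA-ZC3H7A, 0.89 ± 0.059 (SE), adjusted p = 2.3e-11 on the log2 scale by limma, and ZNF285 the largest in favour of Flag/HA-ZC3H7B, -0.83 ± 0.16 (SE), adjusted p = 2.6e-04. ZNF260 (chr19:36510695-36528660, minus strand), a gene with no KRAB-like match whose rat relative acts in the heart muscle response to adrenergic signals, had 3859, 3981 and 4364 normalized counts in Flag/HA-ZC3H7A, against 2377, 2498 and 2631 in Flag/HA-ZC3H7B, with 2396, 2559 and 2571 in control. It was raised in Flag/HA-ZC3H7A, while Flag/HA-ZC3H7B and control overlapped, and the difference between the lines was 0.70 ± 0.054 (SE), adjusted p = 2.5e-10 by limma. ZFP30 had 5870.2, 5782 and 6238 in Flag/HA-ZC3H7A and 3772, 3529 and 3745 in Flag/HA-ZC3H7B, a difference of 0.70 ± 0.048 (SE). In the opposite direction, ZNF230 (chr19:44002948-44013926, plus strand) had 1135, 1146 and 1109.9 in Flag/HA-ZC3H7A and 1454, 1445 and 1432 in Flag/HA-ZC3H7B, or -0.35 ± 0.055 (SE), adjusted p = 1.8e-05 by limma. The 2 groups of libraries stood apart for both genes. ZNF284 (chr19:44072144-44089613, plus strand) had 379, 453 and 488 in Flag/HA-ZC3H7A and 517, 498 and 585 in Flag/HA-ZC3H7B, with a smaller and less certain difference of -0.28 ± 0.10 (SE), adjusted p = 0.032 by limma, a call lost without Flag/HA-ZC3H7A replicate 1 or Flag/HA-ZC3H7B replicate 3.

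In the libraries labelled ZC3H7A/B-DD, few of the 53 genes differed from Parental. ZFP14 and ZNF607 rose, ZNF285, ZNF383, ZNF568, ZNF850 and ZNF45 fell, and 46 did not pass, against 24.5% of all 17092 genes called, 11.0% higher and 13.5% lower. The members' share of calls, 13.2%, was below that of all genes, and their median log2 change was 0.014, against 0.024 over all genes. All 3 ZC3H7A/B-DD libraries lay above all Parental ones in 11 genes and below in 7, against 40.8% of all genes without overlap, 19.6% above and 21.2% below. Their share of reads was 0.150% to 0.167% in ZC3H7A/B-DD and 0.155% to 0.165% in Parental libraries. Without Parental replicate 3 the same 7 genes were called, together with ZNF224, ZNF225 and ZNF235 as higher, and 33.1% of all genes tested were called. Without Parental replicate 2 only ZFP14, ZNF383 and ZNF568 passed, and 11.3% of all genes did. With any 1 ZC3H7A/B-DD library left out, ZFP14 was the only gene called higher, and 4 to 6 genes were called lower. Of all genes tested, 15.3% to 18.6% were then called. The call of ZNF607 was lost whenever a library other than Parental replicate 3 was left out.

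ZFP14 had 1078, 994 and 955 normalized counts in ZC3H7A/B-DD, against 727, 775 and 763 in Parental, a log2 change of 0.42 ± 0.089 (SE), adjusted p = 0.010 by limma. ZNF607 (chr19:37696363-37719790, minus strand) had 2048, 1945 and 1808 in ZC3H7A/B-DD and 1287, 1365 and 1716 in Parental, or 0.42 ± 0.12 (SE), adjusted p = 0.031 by limma. All ZC3H7A/B-DD libraries were above the Parental ones in both, but for ZNF607 Parental replicate 3 came close, and the change was 0.54 without it. ZNF285 had 30.3, 31.5 and 29.3 in ZC3H7A/B-DD and 50.2, 76.4 and 57.9 in Parental, or -0.97 ± 0.22 (SE), adjusted p = 0.014 by limma. ZNF383 (chr19:37217926-37248738, plus strand) had 399, 353 and 381 in ZC3H7A/B-DD and 550.4, 574 and 523 in Parental, or -0.54 ± 0.10 (SE), adjusted p = 0.0055 by limma. These 2 genes were lower in every ZC3H7A/B-DD library.

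ZNF568 (chr19:36916329-36998700, plus strand), whose mouse counterpart represses a placental form of the growth factor gene Igf2, had 747, 591 and 680.2 normalized counts in ZC3H7A/B-DD and 951, 876 and 964 in Parental, a log2 change of -0.47 ± 0.11 (SE), adjusted p = 0.014 by limma. ZNF850 (chr19:36714383-36772825, minus strand), the gene with the most fingers, had 1185, 991 and 1157 in ZC3H7A/B-DD and 1496, 1544 and 1478 in Parental, or -0.44 ± 0.094 (SE), adjusted p = 0.0100 by limma. ZNF45 (chr19:43912629-43935278, minus strand) had 1352, 1144 and 1228 in ZC3H7A/B-DD and 1581, 1615 and 1769 in Parental, or -0.42 ± 0.094 (SE), adjusted p = 0.013 by limma. None of the 3 overlapped between groups, and each was also called lower without Parental replicate 3, at -0.45 for ZNF568, -0.46 for ZNF850 and -0.37 for ZNF45. Of the 7 genes called here, 6 were also called higher in Flag/HA-ZC3H7A, as were 46 of all 53, and 4 of these 6 fell in ZC3H7A/B-DD.

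Several of the 53 genes have a described role or a near-identical copy and were followed whatever their values. ZNF146 had 23327 ± 327 normalized counts in Flag/HA-ZC3H7A, 20576 ± 580.1 in Flag/HA-ZC3H7B and 16737 ± 123 in control (SD, n = 3), with log2 changes of 0.48 ± 0.042 and 0.30 ± 0.042 (SE). ZNF224, which encodes a KRAB repressor of the aldolase A gene, had 502, 519.7 and 464 in Flag/HA-ZC3H7A, 446, 472 and 465 in Flag/HA-ZC3H7B and 418, 392 and 353 in control, and changed by 0.35 ± 0.086 and 0.25 ± 0.086. Both rose in both lines, but the call of ZNF224 in Flag/HA-ZC3H7B was lost without Flag/HA control replicate 3 (0.19) or Flag/HA-ZC3H7B replicate 2 (0.23), with DESeq2 (0.22), with quantile scaling (0.17) and with 1 fit for all 15 libraries (0.25). ZNF382, described as a KRAB repressor with tumour suppressor activity, had 2329, 2340.3 and 2388 in Flag/HA-ZC3H7A, 1872, 1858 and 1901 in Flag/HA-ZC3H7B and 1289.9, 1512 and 1365 in control, and changed by 0.76 ± 0.055 and 0.44 ± 0.055. ZNF420, also called Apak and known as a negative regulator of p53, had 2119.7, 2160.0 and 2346 in Flag/HA-ZC3H7A, 1575, 1679 and 1559 in Flag/HA-ZC3H7B and 1446, 1473 and 1517 in control, and changed by 0.58 ± 0.054 and 0.12 ± 0.054, the second of which did not pass (adjusted p = 0.071, limma). For both genes the Flag/HA-ZC3H7A libraries were above all others. ZNF568 had 1729, 1882 and 1891 in Flag/HA-ZC3H7A, 1178, 1272 and 1151 in Flag/HA-ZC3H7B and 1087, 1189 and 1199 in control, rose by 0.66 ± 0.060 in Flag/HA-ZC3H7A, and overlapped with the control in Flag/HA-ZC3H7B. In ZC3H7A/B-DD over Parental, log2 changes were -0.10 ± 0.11 for ZNF146, 0.25 ± 0.17 for ZNF224, 0.15 ± 0.089 for ZNF382 and -0.072 ± 0.10 for ZNF420, none of which passed.

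ZNF585A (chr19:37106734-37172741, minus strand) and ZNF585B (chr19:37181579-37218153, minus strand) are near-identical copies, so their counts are uncertain. Their coding sequences of 2307 bases are 96.1% identical, differ at 90 bases and share a run of 305 bases. Of the 30-base windows of ZNF585A, 55.1% also occur in the coding sequence of another gene, and 54.8% of those of ZNF585B do. The stretch with most differences, codons 112 to 141, is given here from GENCODE release 29, with the 20 differing bases in capitals.
ZNF585A (chr19:37153476-37153565, minus strand, coding exon 5): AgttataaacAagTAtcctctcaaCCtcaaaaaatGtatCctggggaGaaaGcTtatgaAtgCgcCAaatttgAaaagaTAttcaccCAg
ZNF585B (chr19:37187114-37187203, minus strand, coding exon 5): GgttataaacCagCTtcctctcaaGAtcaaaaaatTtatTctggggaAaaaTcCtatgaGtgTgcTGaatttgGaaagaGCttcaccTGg
Only reads across such bases can be assigned to 1 copy. ZNF585A had 814, 809 and 923 normalized counts in Flag/HA-ZC3H7A, 844, 876 and 835 in Flag/HA-ZC3H7B and 546, 599 and 563 in control. ZNF585B had 1668, 1596 and 1889.8 in Flag/HA-ZC3H7A, 1413, 1422 and 1597 in Flag/HA-ZC3H7B and 849, 1003 and 1043 in control. Both copies rose in both lines, by log2 0.57 ± 0.071 and 0.58 ± 0.071 (SE) for ZNF585A and 0.83 ± 0.075 and 0.62 ± 0.075 for ZNF585B. Between the lines ZNF585B was called higher in Flag/HA-ZC3H7A (0.22 ± 0.075 (SE), adjusted p = 0.026, limma) although the libraries overlapped and the call was lost without Flag/HA-ZC3H7A replicate 3 or Flag/HA-ZC3H7B replicate 1 or 2, and ZNF585A differed by -0.0069 ± 0.071. In ZC3H7A/B-DD over Parental, ZNF585A changed by -0.16 ± 0.13 and ZNF585B by -0.025 ± 0.11, neither of which passed. ZNF302 shares 22.8% of its windows, with ZNF181, and is uncertain too. Without these 3 genes, 43 of 50 were higher in Flag/HA-ZC3H7A and 40 of 50 in Flag/HA-ZC3H7B.

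Some neighbours overlap on opposite strands, and whether counting used strand is not given in the sources used here, so reads in the overlaps cannot be told apart. Exons overlap between ZNF565 and ZNF146, ZNF529 and ZNF382, ZNF585B and ZNF383, ZNF569 and ZNF570, ZNF540 and ZFP30, ZNF227 and ZNF235, and ZNF235 and ZNF233. The overlap reaches far into a coding sequence in 1 of these pairs, where it holds 735 coding bases of ZNF227. ZNF227 changed by 0.22 ± 0.045 (SE) and ZNF235 by 0.53 ± 0.11 in Flag/HA-ZC3H7A over control, and both passed. ZNF383 and ZNF585B start head to head, and the RefSeq promoter window of ZNF383 (GRCh38.p14, chr19:37217964-37218263, plus strand) is shown because the annotated start of ZNF585B lies inside it, with its 23 CG dinucleotides in capitals.
ZNF383 promoter window: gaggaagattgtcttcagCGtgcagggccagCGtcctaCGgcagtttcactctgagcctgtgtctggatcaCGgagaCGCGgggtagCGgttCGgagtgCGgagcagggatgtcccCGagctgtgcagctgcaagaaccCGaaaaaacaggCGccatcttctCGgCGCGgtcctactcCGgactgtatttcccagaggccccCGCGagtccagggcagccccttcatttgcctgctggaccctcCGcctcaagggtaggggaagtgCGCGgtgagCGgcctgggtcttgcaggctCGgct
At least 23 CG dinucleotides were found in 35.8% of the 35116 promoter windows, each of the same 300 bases in length. The median was 20 in the 66 windows of 46 of the 53 genes that matched, and 14 over all windows. In ZC3H7A/B-DD over Parental, ZNF383 fell by 0.54 on the log2 scale, whereas ZNF585B, with the change given above, did not pass, and the difference between the genes was not tested.

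Other zinc finger genes were set beside the 53. On chromosome 19 outside them, 174 were tested in the Flag/HA libraries, of which 135 rose and 8 fell in Flag/HA-ZC3H7A over control (median log2 change 0.57) and 130 rose and 12 fell in Flag/HA-ZC3H7B (0.54). Off chromosome 19, 121 of 271 rose and 30 fell in Flag/HA-ZC3H7A (0.18), and 122 rose and 30 fell in Flag/HA-ZC3H7B (0.17). Shares of genes that rose over control were thus 77.6% and 74.7% in the other chromosome 19 genes, against 86.8% and 81.1% in the 53, so a rise was not particular to the 53. Between the lines, 32 of the 174 were higher in Flag/HA-ZC3H7A and 13 lower (median 0.018), against 27 and 5 of the 53 (0.17). In ZC3H7A/B-DD over Parental, 16 of 164 rose and 22 fell on chromosome 19, and 35 of 269 rose and 22 fell off it. These counts ranged over 5 to 17 and 11 to 22, and over 15 to 59 and 10 to 26, when 1 library was left out. Of all genes tested, 24.5% were called with every library and 11.3% to 33.1% with 1 left out. No test of one list against another was made.

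The only other protein-coding genes of the annotation that lie inside the clusters and were found in the table, HKR1 and ZNF781, are themselves zinc finger genes of cluster 2. HKR1 had 2900.3, 3003 and 3236 normalized counts in Flag/HA-ZC3H7A, 2104, 2125 and 2357 in Flag/HA-ZC3H7B and 1384, 1486 and 1527 in control. The groups stood apart in the same order as for ZNF793 and ZFP82, with log2 changes of 1.05 ± 0.057 and 0.58 ± 0.057 (SE) over control. ZNF781 was low, at 41.5, 41.9 and 54.8 in Flag/HA-ZC3H7A, 50.2, 38.9 and 52.8 in Flag/HA-ZC3H7B and 16.5, 13.2 and 7.54 in control, and rose in both lines, by 1.86 ± 0.31 and 1.90 ± 0.31.

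The partners of KRAB proteins were called in both directions. Of 30 cofactor genes, 10 rose and 10 fell in Flag/HA-ZC3H7A over control (median log2 change 0.027), and 11 rose and 12 fell in Flag/HA-ZC3H7B (0.0022). In all, 66.7% of the cofactors were called in Flag/HA-ZC3H7A, against 57.5% of all genes (29.2% higher and 28.2% lower), and 76.7% in Flag/HA-ZC3H7B, against 54.3% (28.9% higher and 25.4% lower). TRIM28, the corepressor that KRAB domains bind, had 34279, 33800.4 and 31833 normalized counts in Flag/HA-ZC3H7A, 34100.2, 33120.1 and 31095 in Flag/HA-ZC3H7B and 22276, 21247 and 21057 in control, and rose by 0.63 ± 0.048 and 0.61 ± 0.048 (SE). SETDB1 changed by -0.014 ± 0.045 and 0.0069 ± 0.045, neither of which passed. CBX5, the heterochromatin protein HP1 alpha, fell in both lines, with log2 changes of -0.49 ± 0.048 and -0.55 ± 0.048. In Flag/HA-ZC3H7A, MORC2, an ATPase that works with the HUSH silencing complex, rose by 0.49 ± 0.046, and the deacetylase gene HDAC2 had -0.44 ± 0.050. In Flag/HA-ZC3H7B, ZNF274, a KRAB protein known to bind zinc finger genes themselves, rose by 0.82 ± 0.064, and the chromatin remodeller ATRX had -0.53 ± 0.040.

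Between the lines, 7 of the 30 cofactor genes were higher in Flag/HA-ZC3H7A and 9 lower, so that 53.3% were called, against 36.6% of all genes (18.4% higher and 18.2% lower). CHD3, a subunit of the NuRD deacetylase complex, and ATRX were higher, by 0.38 ± 0.044 and 0.31 ± 0.040 (SE), and MPHOSPH8, of the HUSH complex, and ZNF274 were lower, at -0.29 ± 0.051 and -0.35 ± 0.064. In ZC3H7A/B-DD over Parental 3 rose and 2 fell, so that 16.7% were called, against 24.5% of all genes (11.0% higher and 13.5% lower). ZNF274 had 1365, 1421 and 1234 normalized counts in ZC3H7A/B-DD, against 2065, 1842 and 1779 in Parental, a log2 change of -0.50 ± 0.10 (SE), adjusted p = 0.0062 by limma. ATRX had 8262, 7202 and 6581 in ZC3H7A/B-DD and 2762, 3409.6 and 6182 in Parental, or 0.92 ± 0.25 (SE), adjusted p = 0.028 by limma. UHRF1, which reads hemimethylated DNA, rose by 1.07 ± 0.26 and the DNA methyltransferase gene DNMT3B changed by -0.71 ± 0.17. In these genes Parental replicate 3 lay nearer to ZC3H7A/B-DD for ATRX and UHRF1 and farther from it for DNMT3B. Without Parental replicate 3, 13 of the 30 rose and 4 fell, while the share of all genes called was 33.1%. Without Parental replicate 2, or with any 1 ZC3H7A/B-DD library left out, at most 1 of the 30 rose. ATRX was called in none of these, and 11.3% to 18.6% of all genes were. The call of UHRF1 was lost without ZC3H7A/B-DD replicate 2 or 3 or Parental replicate 2, and that of DNMT3B without ZC3H7A/B-DD replicate 1 or 3.

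Codons ending in A or T made up a median of 60.5% of codons in the 53 genes (65.0% in cluster 2, 57.8% in cluster 3), against 40.9% over the 12843 tested genes with a coding sequence. The other chromosome 19 zinc finger genes had a median of 60.5% too (170 genes with a coding sequence). Their median log2 changes over control, given above, were 0.57 in Flag/HA-ZC3H7A and 0.54 in Flag/HA-ZC3H7B. Genes that are not zinc finger genes were told apart by symbol only, so zinc finger genes with other symbols, such as HKR1, were not left out. What part such codons have in the changes was not tested. In the band of 60% to 70%, 28 of the 53 genes had a median log2 change of 0.63 in Flag/HA-ZC3H7A over control. The 1862 other genes without a zinc finger symbol had -0.18, 15.1% of them higher and 55.3% lower. In Flag/HA-ZC3H7B the values were 0.30 and -0.18, with 14.1% of the other genes higher and 54.1% lower. Between the share of such codons and the log2 change in Flag/HA-ZC3H7A, Pearson's r was 0.050 and Spearman's rho 0.11 across the 53 genes, which share libraries and base composition and are not independent. The clusters differ in both measures, and within cluster 2 (28 genes) r was -0.28 and rho -0.24, and within cluster 3 (20 genes) r was -0.26 and rho 0.078. In Flag/HA-ZC3H7B they were -0.26 and -0.21 across the 53 genes, -0.40 and -0.37 in cluster 2, and -0.36 and -0.30 in cluster 3. Across the 12843 genes r was -0.20 and rho -0.27 in Flag/HA-ZC3H7A, and r was -0.24 and rho -0.29 in Flag/HA-ZC3H7B. ZNF793, with 52.6% of such codons, and ZFP82, with 63.7%, had the 2 largest rises, and ZNF404, with 69.9%, the highest share of the 53, had a change of 0.079 ± 0.076 (SE) that did not pass. The 28 genes of that band had, in ZC3H7A/B-DD over Parental, a median of -0.0083 and the other genes 0.11.

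**Figure D5:**
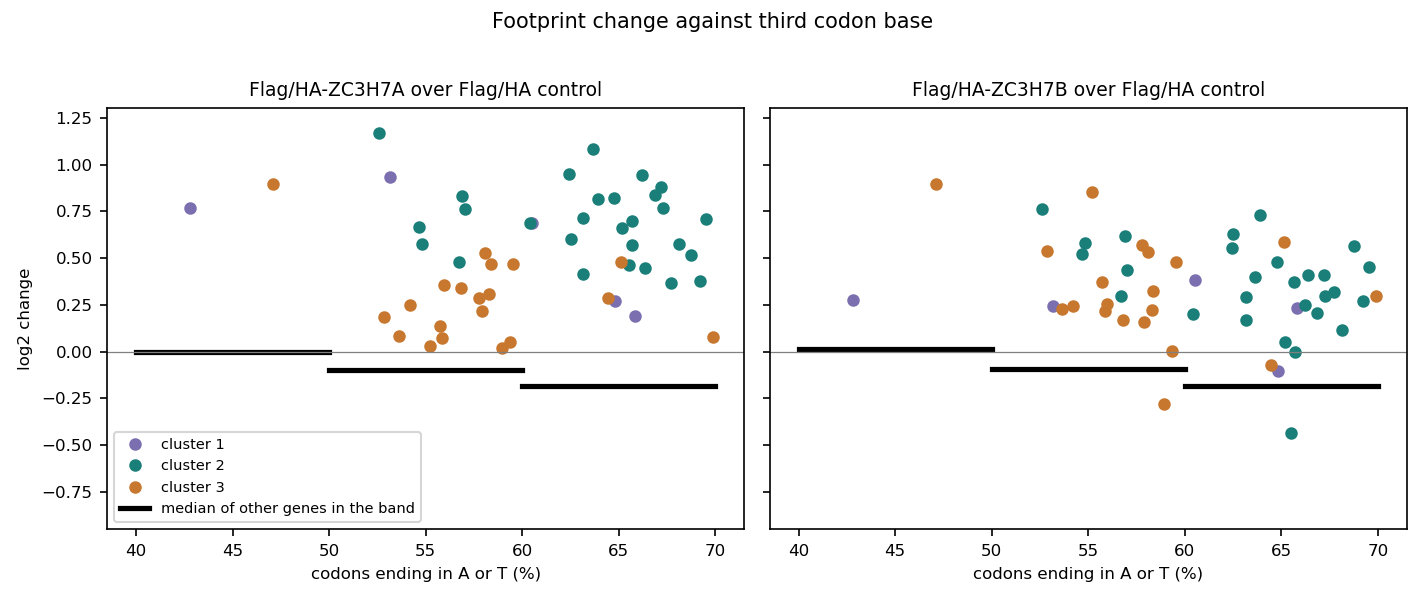
Log2 change of the 53 zinc finger genes over Flag/HA control against the percentage of their codons that end in A or T. Flag/HA-ZC3H7A is on the left and Flag/HA-ZC3H7B on the right, and points are genes coloured by cluster. Black bars are medians of the other genes, zinc finger genes left out by symbol, in bands of 10 percentage points. On the left all points lie above 0 while the bar of the 60% to 70% band lies at -0.18.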

How the data were processed

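The deposited table holds ribosome footprint counts per gene divided by a size factor of each library, a signal that the authors scaled; the labels' protocols describe RNase I footprinting, and the tools listed in the submitters' processing notes are Bowtie, STAR, DESeq2, HTSeq and cutadapt, and the builds are hg19 and hg38, without roles. Whole reads were recovered from the steps of the values (100% whole within 0.001 reads), and depths come from them. All 15 libraries in 5 groups of 3 were used. The main test was limma 3.58.1 (R 4.3.3) on log2 of the value plus 1 with trended variance, keeping genes that reached 10 in 3 or more libraries of a fit, with Benjamini-Hochberg adjustment over all genes at 0.05; the 9 Flag/HA libraries shared a fit, as did the 6 others. This scale understates the change of low genes. Recovered reads were tested with edgeR 4.0.16 and DESeq2 1.42.0 as alternatives, besides other pseudocounts, filters, scalings, precision weights, a replicate block and leaving out each library, and scripts were tested on simulated data. Coordinates and coding sequences are from GENCODE release 29 (GRCh38), which was matched by symbol; fingers were counted in the translated longest coding sequence rather than in RefSeq proteins. Finger patterns, KRAB-like motifs and shared 30-base windows were searched by script. Genes with values per library are the 6 largest changes per direction that passed with no overlap between libraries, 3 between the lines, and 7 fixed genes, with up to 2 called cofactors per direction. The members and lists were chosen with earlier results of these data known.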

Additional observations from a re-analysis of the deposited data

Results flagged for a closer look

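ZNF573 was the gene of the 53 whose effects in the Flag/HA lines were called in opposite directions over the same control, higher in Flag/HA-ZC3H7A and lower in Flag/HA-ZC3H7B. The difference between the lines, tested directly by limma, was 0.89 on the log2 scale, with all 3 Flag/HA-ZC3H7A libraries above all 3 Flag/HA-ZC3H7B libraries. Its change in ZC3H7A/B-DD over Parental was 0.19 ± 0.10 (SE) and did not pass.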

How the results depend on the processing

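Of the 53 genes, 44 to 47 were called higher in Flag/HA-ZC3H7A and 38 to 45 in Flag/HA-ZC3H7B over control under every alternative that kept all 53, and no called gene changed sign; the causes of the shifts below were not tested. Between the lines, 2 were lower with DESeq2 or 1 fit for all 15 libraries, 3 with equal library totals, and 2 to 4 when 1 library was left out, the fewest without Flag/HA-ZC3H7A replicate 1. In ZC3H7A/B-DD over Parental, 1 of the 53 was higher with TMM scaling or the replicate block, where 24.2% and 17.5% of all genes were called. With the single fit 6 were higher, and the share of all genes called by it is not given here. Precision weights called 12 higher and 9 lower, and 52.7% of all genes tested. Leaving out 1 library gave 1 to 5 higher and 2 to 6 lower, with 11.3% to 33.1% of all genes called. The replicate numbers did not pair the libraries (same-number correlations of deviations -0.13 to 0.092). With that block, 6 other chromosome 19 zinc finger genes were higher in ZC3H7A/B-DD. With the single fit, cofactor counts were 5 lower in Flag/HA-ZC3H7A, 7 higher and 6 lower in Flag/HA-ZC3H7B, 3 higher and 3 lower between the lines, and 13 higher in ZC3H7A/B-DD. Off chromosome 19 that fit gave 18 lower in Flag/HA-ZC3H7A, 19 lower in Flag/HA-ZC3H7B, 29 higher and 19 lower between the lines, and 66 higher and 37 lower in ZC3H7A/B-DD, and 26 other chromosome 19 genes were higher there. With no filter, 5 other chromosome 19 genes were lower in Flag/HA-ZC3H7A, as with equal totals, and 10 were higher in ZC3H7A/B-DD; 5 cofactors were lower between the lines and 6 higher in ZC3H7A/B-DD. Precision weights gave 14 higher and 6 lower cofactors in ZC3H7A/B-DD, 34 and 37 other chromosome 19 genes, and 86 and 49 off it. With 1 library left out, 4 to 12 cofactors were lower between the lines (4 without Flag/HA-ZC3H7B replicate 1) and 5 to 8 other chromosome 19 genes lower in Flag/HA-ZC3H7A (5 without Flag/HA control replicate 3). In ZC3H7A/B-DD that gave 0 to 13 cofactors higher and 1 to 4 lower, 5 to 17 and 11 to 22 on chromosome 19, and 15 to 59 and 10 to 26 off it. The uncalled difference of ZNF585A between the lines turned to 0.018 with edgeR, 0.0075 with DESeq2, and ranged over -0.069 to 0.026 with 1 library left out. The uncalled change of ZNF585B in ZC3H7A/B-DD turned to 0.037 with quantile scaling, and ranged over -0.087 to 0.037 with 1 library left out.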
